A study of Mus musculus with 10 samples.

Results

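Integrin and laminin subunit genes were examined in RNA sequencing of mouse pancreas. The members were the rows of the count table whose symbols name an integrin alpha or beta chain by number, a laminin alpha, beta or gamma chain by number, or one of Itgav, Itgam, Itgax, Itgal and Itgae. The rule gave 40 of the 24421 genes in the table, and 39 of them are described. They were separated by the cells in which they are best known into 10 epithelial, 13 stromal, 4 broadly expressed and 9 leukocyte or platelet subunits. The other 3, Itgb1bp1, Itgb1bp2 and Itgb3bp, match the rule by their names but encode binding partners of integrin tails or proteins named after them, not subunits.

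The libraries came from a piece of the pancreas tail of female mice aged 12 weeks, with 1 library per mouse. All mice carried Ptf1aCreER, a Cre recombinase made active by tamoxifen and expressed from a gene of acinar cells, the cells that make digestive enzymes, together with the nuclear reporter nTnG. What set the groups apart was the number of floxed Insr alleles (Insr encodes the insulin receptor), with 0 in the 3 libraries labelled Insr WT (Insrw/w), 1 in the 3 labelled Insr Het (Insrw/f) and 2 in the 4 labelled Insr KO (Insrf/f). By its title the series asks whether acinar insulin receptors act in the start of obesity-associated pancreatic cancer, and whole tissue pieces were sequenced, so genes of all cell types were counted while the Cre driver is acinar. In such pieces fewer cells of a type and less RNA per cell cannot be told apart. Libraries carry the name of their group and mouse, as in WT-2404.

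Integrins are cell surface receptors made of 1 alpha and 1 beta chain that bind matrix proteins or other cells and connect them to the actin cytoskeleton or, for the pair of Itga6 and Itgb4, to keratin filaments at hemidesmosomes. Laminins are cross-shaped trimers of an alpha, a beta and a gamma chain, and they form the sheet of the basement membrane on which epithelia, vessels and muscle rest. In the pancreas laminins that hold Lama3 and Lamb3 lie under ducts and are well known at the edge of ductal lesions and tumours, while Itgb2 and its alpha partners mark leukocytes.

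RefSeq promoter windows on GRCm38.p6, the assembly of the build mm10 that the submitters' processing notes name, were matched by symbol to 26 of the 39 members. They are shown for 3 members that represent different patterns below: Lamb3, a lesion-associated epithelial laminin chain that was lower in KO libraries, Itgam, a myeloid integrin chain that was lower, and Lama2, a stromal laminin chain whose ranges overlapped. Each runs 5′ to 3′ over the 250 bases before the first transcribed base of a RefSeq transcript, and capitals mark the letters GAGGAAG, a core bound by ETS family factors such as the myeloid regulator Spi1, searched on both strands. Lamb3 is at chr1:193301744-193301993, plus strand, Itgam at chr7:128062390-128062639, plus strand, and Lama2 at chr10:27616943-27617192, minus strand. RefSeq gives Lamb3 and Lama2 other transcripts that start further upstream, so for these genes the window lies inside the span of the gene and before an internal start, and of the windows of Lamb3 the one that holds the letters is shown.
Lamb3: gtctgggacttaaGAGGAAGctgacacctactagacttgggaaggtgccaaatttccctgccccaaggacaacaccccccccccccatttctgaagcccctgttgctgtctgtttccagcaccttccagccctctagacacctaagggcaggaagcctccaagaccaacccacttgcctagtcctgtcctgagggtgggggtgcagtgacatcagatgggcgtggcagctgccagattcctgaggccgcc
Itgam: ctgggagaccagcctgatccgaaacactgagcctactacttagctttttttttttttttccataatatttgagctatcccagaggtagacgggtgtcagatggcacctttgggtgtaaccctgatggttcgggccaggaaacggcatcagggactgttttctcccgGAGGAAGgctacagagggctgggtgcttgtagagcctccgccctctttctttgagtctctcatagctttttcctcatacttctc
Lama2: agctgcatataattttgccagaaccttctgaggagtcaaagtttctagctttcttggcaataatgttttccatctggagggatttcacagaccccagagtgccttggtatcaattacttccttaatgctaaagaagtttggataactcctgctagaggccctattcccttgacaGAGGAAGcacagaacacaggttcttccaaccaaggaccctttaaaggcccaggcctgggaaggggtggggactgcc
The letters began 237, 84 and 76 bases before the first transcribed base of that transcript, in that order. Counting a gene if any of its windows held them, they occurred in 8 of the 26 matched members and in 12.0% of the 27025 genes with a window. These 8 were Lamb3 and Itgb6 of the epithelial class, Itgam, Itga2b and Itgb2l of the leukocyte class, Lama2 and Itga11 of the stromal class and Itgav. All 3 windows shown come from these 8, so they do not show how common the letters are among the members. Matched members without the letters included Itga3, Lama5, Itga5 and Itga4.

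The members share positions as well as functions. Itgam lies 11.0 kb from Itgax on chromosome 7, and Itga1 lies 26.0 kb from Itga2 on chromosome 13 (RefSeq, GRCm38.p6). In the GENCODE M21 annotation 68.7% of the exon bases of Itgam are shared with another gene (Gm49368) and 33.5% of those of Itga10 with a further gene (Gm42957), both on the same strand, so these counts are uncertain to that extent.

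Total gene counts ranged from 11718559 to 19024351 per library, and the members together took 3331 to 55716 of them. WT-2404 stood apart from the other 9 libraries. Digestive enzyme genes took 15.7% of its gene counts and 58.3% to 77.3% elsewhere, its TMM scaling factor was 3.53 against 0.596 to 1.56, and the members took 0.329% of its counts against 0.0240% to 0.110%. Many results are given with and without it, and a value given alone includes it. Levels are given as CPM, counts scaled to a common library size with TMM factors, and a count of 0 allows up to 3 counts, which correspond to 0.0501 to 0.395 CPM. The targeted gene Insr was at 29.8 ± 9.88, 38.5 ± 8.92 and 31.5 ± 5.95 CPM (SD) in the WT (n = 3), Het (n = 3) and KO (n = 4) groups. Gene counts of whole tissue do not show which exons were lost in acinar cells, so Insr does not check the labels. Acinar, ductal, fibroblast, endothelial, leukocyte and islet markers were all counted in every library, and of the marker genes only Ccl21a, of lymph node stroma, was at 0 throughout.

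Per kilobase of annotated exon, Itgb1, the beta chain shared by most matrix-binding integrins, was the most abundant member in every group, at 31.5 ± 8.03, 22.7 ± 3.0 and 21.7 ± 1.99 CPM per kb (SD) in the WT (n = 3), Het (n = 3) and KO (n = 4) groups. Next in WT came Itgb2 at 10.1 ± 5.56, Itgb5 at 9.85 ± 3.46 and Itgb4 at 8.98 ± 0.780 CPM per kb (SD, n = 3), which did not differ beyond their spread. The place of Itgb2 leaned on WT-2404, where it was at 50.2 CPM, beside 22.9 and 19.2 CPM in WT-1860 and WT-2067. In KO libraries Itgb4 stood at 6.96 ± 0.905, Itgb5 at 5.50 ± 1.43 and Lamc1 at 4.78 ± 0.618 CPM per kb (SD, n = 4), with Itgb2 at 3.95 ± 1.68.

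KO against WT bears on floxing both alleles of Insr. Epithelial laminin and integrin subunits were lower in KO libraries, as were leukocyte subunits and broad ones, while the stromal class was divided. In edgeR's quasi-likelihood test 0 of 37 tested members passed an adjusted p of 0.05, as did 0 of 13688 genes (0% called, lowest adjusted p = 0.116). At an unadjusted p under 0.05, 15 members were lower and 1 was higher in KO libraries, where 13.9% of all tested genes were lower and 9.6% higher at that level. DESeq2 called 12 of the 39 members, all lower, where it called 3.96% of all genes lower and 1.61% higher, and these were 7 epithelial subunits, Itgam, Itgb2, Itga4, Itga5 and Itgav. Ranges of CPM did not overlap for 12 members that were lower (9.17% of all genes) and for 1 that was higher (6.74%). The median log2 fold change was -0.67 over the tested members, -0.34 without WT-2404, and 0.03 over all tested genes. These counts are descriptions, since the members were chosen with results of these libraries known.

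Single libraries decided how many members passed. Without WT-2404, 0 passed in edgeR, and 10 members were lower and 3 higher at an unadjusted p under 0.05, beside 5.29% and 4.13% of all genes. Of those 10, 7 were epithelial. Without WT-2067, 13 members passed the adjusted threshold, 12 of them lower, beside 7.42% of all genes called lower and 6.22% higher. By library size alone 20 members passed, all lower, beside 20.7% of all genes, and 26 were lower at an unadjusted p under 0.05, beside 45.9%.

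Lamb3 and Lama3, chains of ductal laminin, had lower means in KO and Het than in WT libraries. Lamb3, the beta chain (chromosome 1, 193294353 to 193343878), stood at 31.6, 26.1 and 24.7 CPM in WT-2404, WT-1860 and WT-2067. It stood at 10.3, 18.7 and 22.8 CPM in Het-2066, Het-1770 and Het-2042, and at 18.05, 8.69, 9.68 and 14.4 CPM in KO-2079, KO-2070, KO-2124 and KO-2126. All 7 libraries with a floxed allele lay under the 3 WT libraries, with Het-2042 the nearest. Its log2 difference was -1.11 in KO against WT (SE 0.29, edgeR adjusted p = 0.116), -0.99 without WT-2404, and -0.67 in Het against WT (SE 0.31, adjusted p = 0.259). By exact permutation of the mice p was 0.0571 in KO against WT (two-sided), where 3 against 4 mice allow 0.0286 at the least. Lama3, the alpha chain, was at 23.9, 26.3 and 11.6 CPM in WT, in the same order of libraries, at 6.05, 9.22 and 13.4 CPM in Het and at 10.6, 5.66, 12.3 and 3.03 CPM in KO libraries. Here WT-2067 lay within the range of the other groups, so the ranges overlapped. Lama3 gave -1.36 in KO against WT (SE 0.44, edgeR adjusted p = 0.127), and -1.21 without WT-2404.

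Itga6 and Itgb4, the alpha and beta chain of the hemidesmosome integrin that binds these laminins, differed less. Itgb4 was at 69.1, 58.5 and 61.4 CPM in WT, at 39.8, 45.7 and 54.6 CPM in Het and at 53.2, 50.04, 39.5 and 52.4 CPM in KO libraries. The WT range lay above both others, with a gap of a few CPM. In KO against WT Itgb4 gave a log2 fold change of -0.37 (SE 0.19, edgeR adjusted p = 0.259), and exact permutation of the mice gave p = 0.0286 (two-sided). That is the least that 3 against 4 mice allow, and it is not adjusted for the number of genes. Among other members with separate WT and KO ranges, this test gave the same p for Itga5 and Itgav. For Itga3, Lama5 and Itgb2 it gave 0.0571. Itga6 was at 51.2, 49.96 and 43.2 CPM in WT, at 41.0, 30.6 and 38.04 CPM in Het and at 41.0, 40.8, 26.1 and 39.9 CPM in KO libraries. The WT libraries were again the highest, and KO-2124 the lowest of all. Itga6 gave -0.38 in KO against WT (SE 0.20, edgeR adjusted p = 0.265). The ratio of Lamb3 to Itgb4 CPM, which does not depend on how libraries are scaled, was 0.402 to 0.457 in WT, 0.258 to 0.418 in Het and 0.174 to 0.339 in KO libraries. Relative to Itgb4, Lamb3 was thus lower in every KO library than in any WT library, while Het and WT overlapped.

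Other epithelial alpha chains and their partners followed the same order. Itga3, the alpha chain of a laminin receptor with Itgb1 (chromosome 11, 95044475 to 95076844), was at 38.2, 36.7 and 32.3 CPM in WT, at 15.6, 20.9 and 26.3 CPM in Het and at 24.1, 19.2, 15.3 and 13.9 CPM in KO libraries. The 3 WT libraries were close together and above all others. KO against WT gave -0.98 for Itga3 (SE 0.22, edgeR adjusted p = 0.116) and -0.92 without WT-2404, nearly as large. Itga2, a collagen-binding chain of epithelia and platelets, was at 8.65 ± 3.02, 2.56 ± 1.31 and 1.72 ± 1.77 CPM (SD) in the WT (n = 3), Het (n = 3) and KO (n = 4) groups. KO-2070 and KO-2126 had 2 counts of it each. Itgb6, the beta chain of an epithelial integrin that activates latent TGF-beta and is known from injured epithelium, was at 6.73, 4.87 and 3.98 CPM in WT, at 2.37, 1.86 and 4.05 CPM in Het and at 3.52, 0.658, 1.84 and 1.01 CPM in KO libraries. No KO library reached the WT range, and Het-2042 did. Itgb6 gave -1.50 in KO against WT (SE 0.47, edgeR adjusted p = 0.121) and -0.90 in Het against WT (SE 0.50, adjusted p = 0.310). Without WT-2404 the KO value was -1.24.

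The other epithelial laminin chains were lower too. Lama1, the alpha chain of embryonic basement membranes, was at 3.77, 2.02 and 1.78 CPM in WT, at 0.351, 0.373 and 0.368 CPM in Het and at 0.927, 0.658, 0.369 and 0 CPM in KO libraries. The floxed libraries held 0 to 15 counts of it, close to the limit of detection. Its log2 fold changes of -2.35 in KO (SE 0.65, edgeR adjusted p = 0.116) and -2.79 in Het against WT (SE 0.74, adjusted p = 0.183) are correspondingly imprecise. Without WT-2404 the KO value was -1.91. Lama5, the alpha chain of most adult epithelial and vessel basement membranes, was at 48.2, 40.1 and 34.5 CPM in WT, at 23.2, 25.2 and 25.1 CPM in Het and at 27.5, 21.3, 31.1 and 18.4 CPM in KO libraries. The WT libraries were the highest, with KO-2124 the nearest. Lama5 gave -0.73 in KO against WT (SE 0.20, edgeR adjusted p = 0.116), and -0.59 without WT-2404. Itgb8, which with Itgav also activates TGF-beta, had at most 56 counts in any library and gave -0.67 (SE 0.78), and -0.23 without WT-2404.

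**Figure D1:**
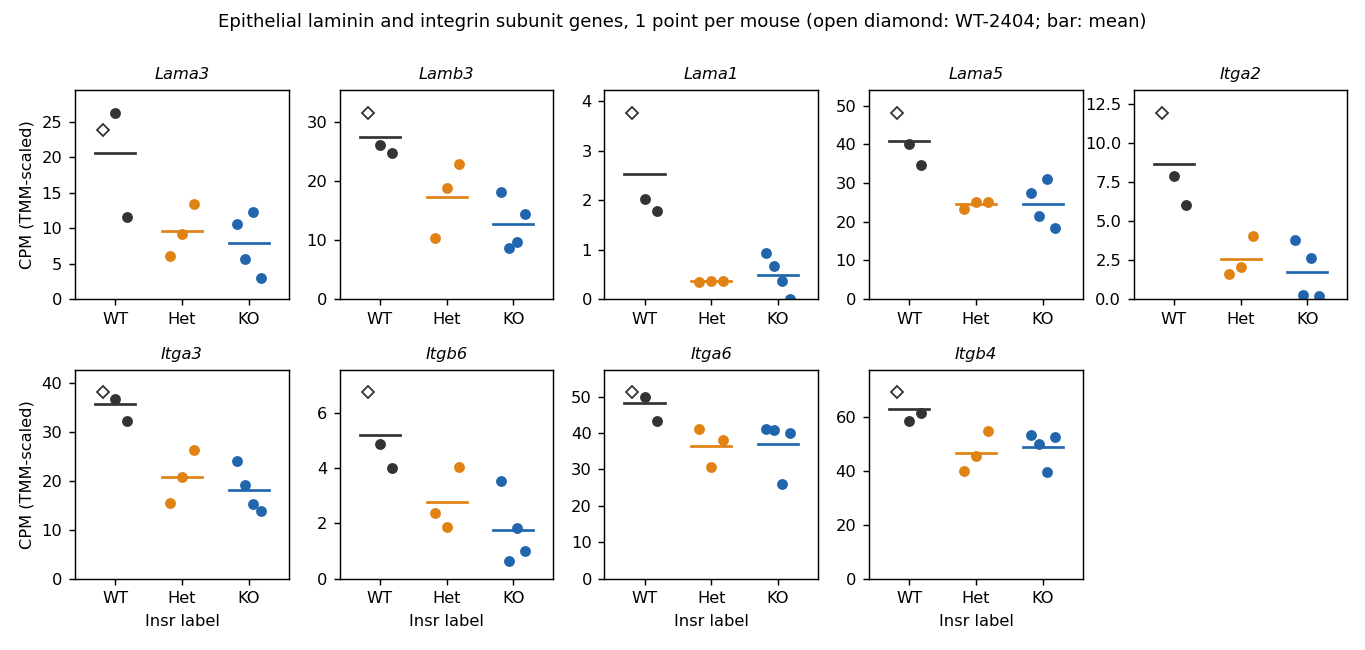
Each panel plots 1 epithelial subunit gene in TMM-scaled CPM (vertical axis, from 0) by Insr label (horizontal axis), with 1 point per mouse, a bar at the group mean and an open diamond for WT-2404. The 3 WT libraries lie above all 4 KO libraries in every panel but Lama3, where WT-2067 at 11.6 CPM lies within the KO range.

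Over the epithelial class, 10 of 10 tested members had a lower estimate in KO than in WT libraries, beside 48.2% of all tested genes. Of these, 7 had an unadjusted p under 0.05, beside 13.9% of all tested genes lower at that p, and 0 passed the adjusted threshold in edgeR. Ranges did not overlap for 8, beside 9.17% of all tested genes. The class median was -1.04, and -0.96 without WT-2404, where 7 members again had an unadjusted p under 0.05, beside 5.29%. In Het against WT 10 of 10 were lower with a median of -0.76, beside 49.7% of all genes. Of these 5 had an unadjusted p under 0.05, beside 11.6%. Ductal markers were lower too. Their summed level was 572 to 838 CPM in WT, 312 to 542 CPM in Het and 282 to 514 CPM in KO libraries, and 7 of 8 marker genes were lower in KO libraries and their median was -0.97 on the log2 scale, and -0.91 without WT-2404. Acinar markers were at 24050 CPM in WT-2404, at 235523 and 518730 CPM in the other WT libraries and at 294704 to 853687 CPM in KO libraries. The part of these cell types in the result was not tested, and ratios of the members to their markers are given further on.

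Of the 4 broadly expressed subunits, Itgav and Itgb1 had WT ranges above those of Het and KO libraries, which overlapped each other. Itgav, the alpha chain of vitronectin and TGF-beta binding integrins (chromosome 2, 83722303 to 83806917), was at 34.0, 22.2 and 18.4 CPM in WT, at 12.3, 15.5 and 17.4 CPM in Het and at 15.1, 14.1, 15.1 and 11.9 CPM in KO libraries. WT-2404 was far above the rest, and the other WT libraries were still above every floxed one. Itgav gave -0.83 in KO against WT (SE 0.22, edgeR adjusted p = 0.116), and -0.53 without WT-2404. Itgb1 was at 166, 116 and 104 CPM in WT, at 78.5, 101 and 98.2 CPM in Het and at 97.5, 92.3, 78.8 and 85.5 CPM in KO libraries. It gave -0.54 in KO against WT (SE 0.23, edgeR adjusted p = 0.185) and -0.31 without WT-2404. Exact permutation of the mice gave p = 0.0286 (two-sided, unadjusted), again the least possible. The ubiquitous laminin chains Lamb1 and Lamc1 had overlapping ranges. Lamb1 gave -0.58 (SE 0.25, edgeR adjusted p = 0.194), and -0.25 without WT-2404. Lamc1, the gamma chain of most laminins, was at 56.3, 52.4 and 35.03 CPM in WT, at 32.9, 47.8 and 41.2 CPM in Het and at 46.7, 34.8, 39.5 and 37.4 CPM in KO libraries. Lamc1 gave -0.28 (SE 0.22, edgeR adjusted p = 0.446), and -0.14 without WT-2404. The ratio of Lamb3 to Lamb1 CPM overlapped, at 0.703 to 1.09 in WT, 0.629 to 0.890 in Het and 0.390 to 0.877 in KO libraries.

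Leukocyte subunits were lower in KO libraries in 8 of 8 tested members, with a class median of -1.001 and 3 members at an unadjusted p under 0.05, beside 48.2% and 13.9% of all tested genes. Itgb2, the beta chain of leukocytes (chromosome 10, 77530329 to 77565708), was at 50.2, 22.9 and 19.2 CPM in WT, at 10.8, 13.9 and 14.2 CPM in Het and at 13.6, 7.11, 18.6 and 8.89 CPM in KO libraries. The WT libraries were the highest, but KO-2124 came within a CPM of WT-2067. Itgb2 gave -1.34 in KO against WT (SE 0.37, edgeR adjusted p = 0.116), and -0.77 without WT-2404. Itgam, its partner on macrophages and neutrophils (chromosome 7, 128062640 to 128118491), was at 65.9, 24.7 and 14.8 CPM in WT, at 9.12, 11.3 and 10.1 CPM in Het and at 15.9, 3.42, 13.0 and 6.06 CPM in KO libraries. WT-2404 held more than any other library, and KO-2079 lay within the WT range. Itgam gave -1.85 in KO against WT (SE 0.54, edgeR adjusted p = 0.121), and -0.98 without WT-2404.

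Itga4, an alpha chain of lymphocytes and monocytes that binds Vcam1, was at 21.5, 14.3 and 8.76 CPM in WT, at 6.75, 6.52 and 7.24 CPM in Het and at 6.0, 4.87, 11.0 and 3.03 CPM in KO libraries. KO-2124 overlapped WT-2067, and the gene gave -1.23 in KO against WT (SE 0.38, edgeR adjusted p = 0.122), and -0.84 without WT-2404. Itgal, the partner of Itgb2 on lymphocytes, was at 6.38, 7.43 and 4.16 CPM in WT, at 4.12, 3.26 and 2.33 CPM in Het and at 3.09, 2.77, 5.25 and 0.707 CPM in KO libraries. Unlike Itgam, it was not highest in WT-2404. Itgal gave -0.98 (SE 0.46, edgeR adjusted p = 0.218). Itgax of dendritic cells and macrophages, Itgb7 and Itgae of mucosal lymphocytes and Itga2b of platelets gave -0.93 (SE 0.51), -0.69 (SE 0.53), -1.02 (SE 0.71) and -0.55 (SE 0.67), with overlapping ranges in each case. Without WT-2404 Itga2b was at 0.28. Itgb2l, a neutrophil gene, had 65 counts in WT-2404 and 0 to 2 in the other 9 libraries and was not tested, as was Itgb1bp2 with 0 to 2 counts.

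Leukocyte markers lay in the same order. The sum of Ptprc, Cd53 and Laptm5 was 71.6 to 202 CPM in WT, 34.9 to 51.0 CPM in Het and 20.5 to 68.9 CPM in KO libraries, and their median in KO against WT was -1.82 on the log2 scale, and -1.20 without WT-2404. Neutrophil markers were at 82.9 CPM in WT-2404 and at 0.263 to 9.03 CPM in the other 9 libraries. Without WT-2404 the leukocyte class median was -0.85, with 7 of 8 members lower and 1 at an unadjusted p under 0.05, beside 5.29% of all genes.

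The stromal class was divided by member. In KO against WT 7 of 13 members were lower and 6 higher, and the class median was -0.03. At an unadjusted p under 0.05, 2 of the 13 were lower, a share near the 13.9% of all tested genes. Itga5, the alpha chain of the fibronectin receptor (chromosome 15, 103344286 to 103366791), was at 24.0, 20.99 and 12.1 CPM in WT, at 8.16, 8.01 and 8.96 CPM in Het and at 9.77, 9.74, 11.6 and 6.67 CPM in KO libraries. Every floxed library was under the WT range, with KO-2124 just under WT-2067. Itga5 gave -1.01 in KO (SE 0.24, edgeR adjusted p = 0.116) and -1.19 in Het against WT (SE 0.27, adjusted p = 0.183). Without WT-2404 the KO value was -0.79. Itgb5, a vitronectin receptor chain, was at 48.9, 30.5 and 25.5 CPM in WT, at 15.1, 22.1 and 27.3 CPM in Het and at 25.9, 15.1, 21.3 and 15.8 CPM in KO libraries. The highest KO and Het library each lay above WT-2067, and Itgb5 gave -0.84 in KO against WT (SE 0.28, edgeR adjusted p = 0.127), and -0.51 without WT-2404. Itgb3, of platelets, endothelium and macrophages, was counted as stromal, though platelets and macrophages belong with the leukocyte or platelet class. It was at 4.83, 4.70 and 2.45 CPM in WT, at 2.19, 1.68 and 2.15 CPM in Het and at 2.29, 1.84, 3.64 and 0.505 CPM in KO libraries. It gave -0.91 in KO against WT (SE 0.47, edgeR adjusted p = 0.255), and -0.72 without WT-2404.

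Other alpha chains of mesenchyme and muscle had overlapping ranges in KO against WT. Itga1, a collagen-binding chain next to Itga2 in the genome, was at 8.07, 10.9 and 9.49 CPM in WT, at 11.9, 10.2 and 7.49 CPM in Het and at 8.47, 10.8, 10.4 and 8.99 CPM in KO libraries. In KO against WT it gave 0.03 (SE 0.20), and the WT and KO ranges lay within the Het range. The ratio of Itga2 to Itga1 CPM was 0.639 to 1.48 in WT, 0.132 to 0.541 in Het and 0.0225 to 0.445 in KO libraries. Itga7, Itga8, Itga10 and Itga11 gave -0.03 (SE 0.40), 0.21 (SE 0.57), 0.46 (SE 0.63) and 0.13 (SE 0.35), from levels of a few CPM or less. Without WT-2404 Itga8 was at -0.14, Itga10 at 0.09 and Itga11 at 0.38. Itga9, a receptor chain for tenascin and other ligands, was at 10.3, 6.40 and 5.76 CPM in WT, at 4.12, 5.12 and 5.34 CPM in Het and at 5.01, 6.32, 7.56 and 3.23 CPM in KO libraries. All Het libraries lay under the WT range, while KO and WT overlapped. It gave -0.44 in KO (SE 0.30, edgeR adjusted p = 0.371) and -0.63 in Het against WT (SE 0.32, adjusted p = 0.280), and -0.12 and -0.30 without WT-2404.

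Stromal and vascular laminin chains had overlapping ranges in KO against WT. Lama4, of vessels and mesenchyme, was at 26.6, 20.7 and 16.8 CPM in WT, at 16.0, 13.9 and 16.0 CPM in Het and at 17.8, 13.0, 21.6 and 11.4 CPM in KO libraries. Its ranges overlapped in KO against WT, where it gave -0.41 (SE 0.23, edgeR adjusted p = 0.290), and -0.21 without WT-2404. Lamb2, of vessels and muscle, gave -0.23 (SE 0.23), and -0.12 without WT-2404. Lama2, the alpha chain around muscle and stromal cells whose promoter is printed above, was at 15.8, 8.64 and 10.8 CPM in WT, at 10.9, 15.9 and 13.0 CPM in Het and at 16.1, 14.0, 13.7 and 11.4 CPM in KO libraries. It gave 0.23 (SE 0.23, edgeR adjusted p = 0.558) in KO against WT, and 0.51 without WT-2404. The overlap came from WT-2404, and the other WT libraries lay under every Het and KO library. Lamc3 was at 2.61, 0.437 and 1.04 CPM in WT, at 3.33, 2.61 and 1.47 CPM in Het and at 2.78, 3.29, 3.27 and 1.31 CPM in KO libraries. It gave 0.91 (SE 0.54, edgeR adjusted p = 0.318), and 1.85 without WT-2404, where its unadjusted p was 0.00587. By library size alone all 13 stromal members were lower in KO libraries, with a class median of -1.17 that equals the shift of -1.17 in the median of all genes under that scaling. The Lama3 to Lama2 ratio of CPM was 1.07 to 3.04 in WT, 0.556 to 1.03 in Het and 0.265 to 0.893 in KO libraries, without overlap to WT.

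Markers of stromal cell types lay in different orders. Fibroblast and stellate cell markers summed to 1220 to 4324 CPM in WT, 494 to 954 CPM in Het and 437 to 1097 CPM in KO libraries. Their median in KO against WT was -1.70 on the log2 scale, and -1.18 without WT-2404, with 6 genes lower and 1 higher. Endothelial markers overlapped, at 89.6 to 139 CPM in WT, 121 to 139 CPM in Het and 88.7 to 173 CPM in KO libraries. Their median was 0.32, and 0.21 without WT-2404, with 6 of 6 genes higher. Smooth muscle and pericyte markers summed to 45.8 to 73.3 CPM in WT, 36.5 to 44.5 CPM in Het and 20.1 to 47.3 CPM in KO libraries. The median of these markers in KO against WT was -0.56, and -0.53 without WT-2404, with 4 genes lower and 1 higher.

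Among the binding partners Itgb1bp1, which binds the tail of Itgb1 and limits its activation (chromosome 12, 21267246 to 21286292), was the 1 member higher in KO libraries at an unadjusted p under 0.05. It was at 6.01, 4.65 and 6.92 CPM in WT, at 11.1, 9.50 and 8.59 CPM in Het and at 9.64, 10.5, 8.89 and 7.98 CPM in KO libraries. All 7 floxed libraries lay above the WT range. Its log2 fold change was 0.66 in KO (SE 0.20, edgeR adjusted p = 0.121) and 0.73 in Het against WT (SE 0.21, adjusted p = 0.183), but by library size alone it was -0.52 and -0.61, above the shifts of -1.17 and -1.36 in all genes. Its exons overlap those of Asap2 and Cpsf3 on the other strand, and use of strand in the counting is not given in the sources used here. Itgb3bp, a centromere protein despite its name, was at 1.02 to 2.07 CPM in all libraries and gave -0.11 (SE 0.36, edgeR adjusted p = 0.872).

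**Figure D2:**
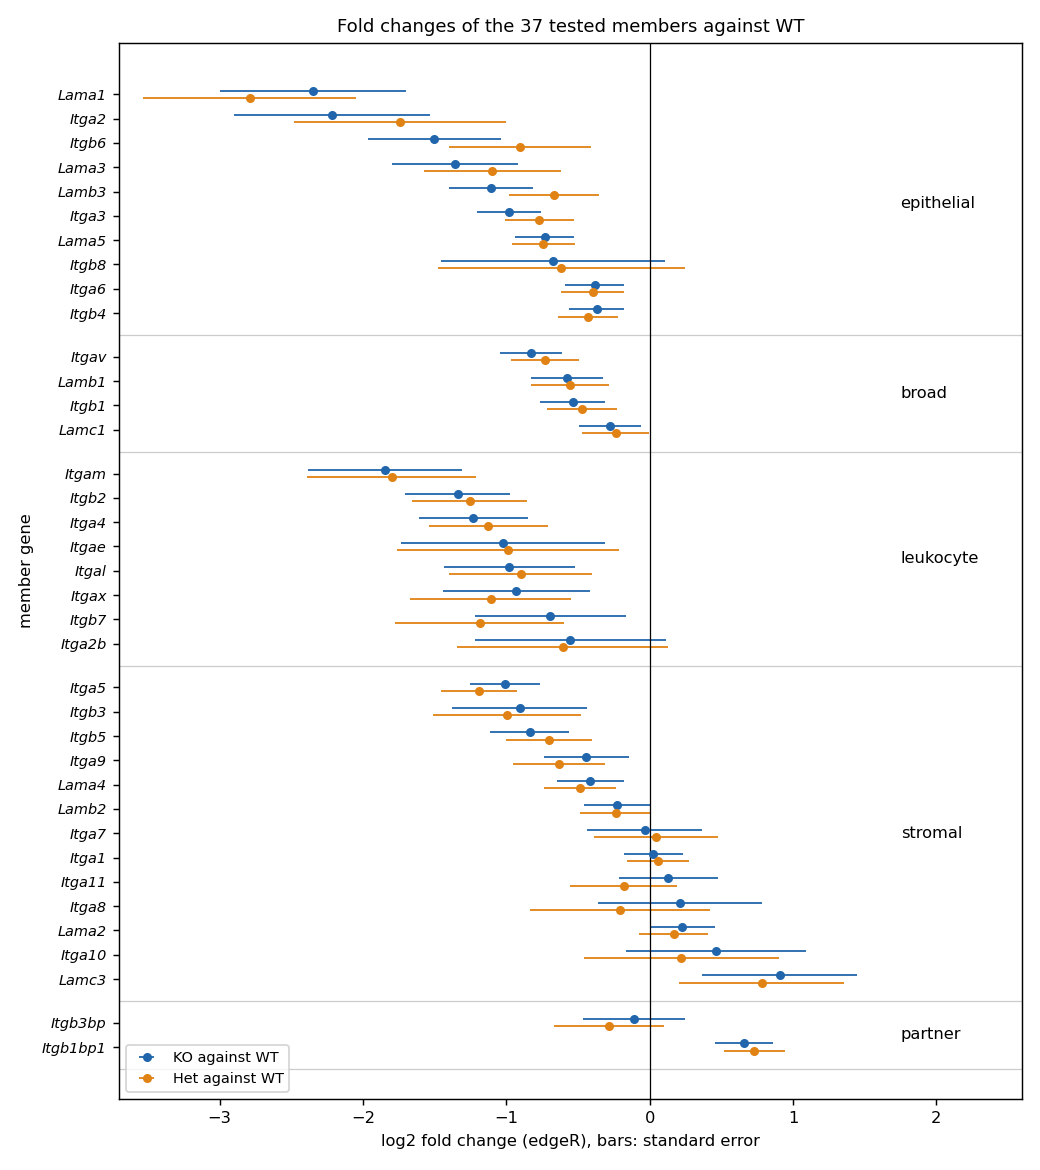
Log2 fold changes from edgeR (horizontal axis) of each tested member (vertical axis, by class), for KO against WT in blue and Het against WT in orange, with bars for the standard error. All 10 epithelial and 8 leukocyte members lie left of 0 in both comparisons, which share the WT libraries, while the stromal members run from -1.01 (Itga5) to 0.91 (Lamc3) in KO against WT.

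**Figure D3:**
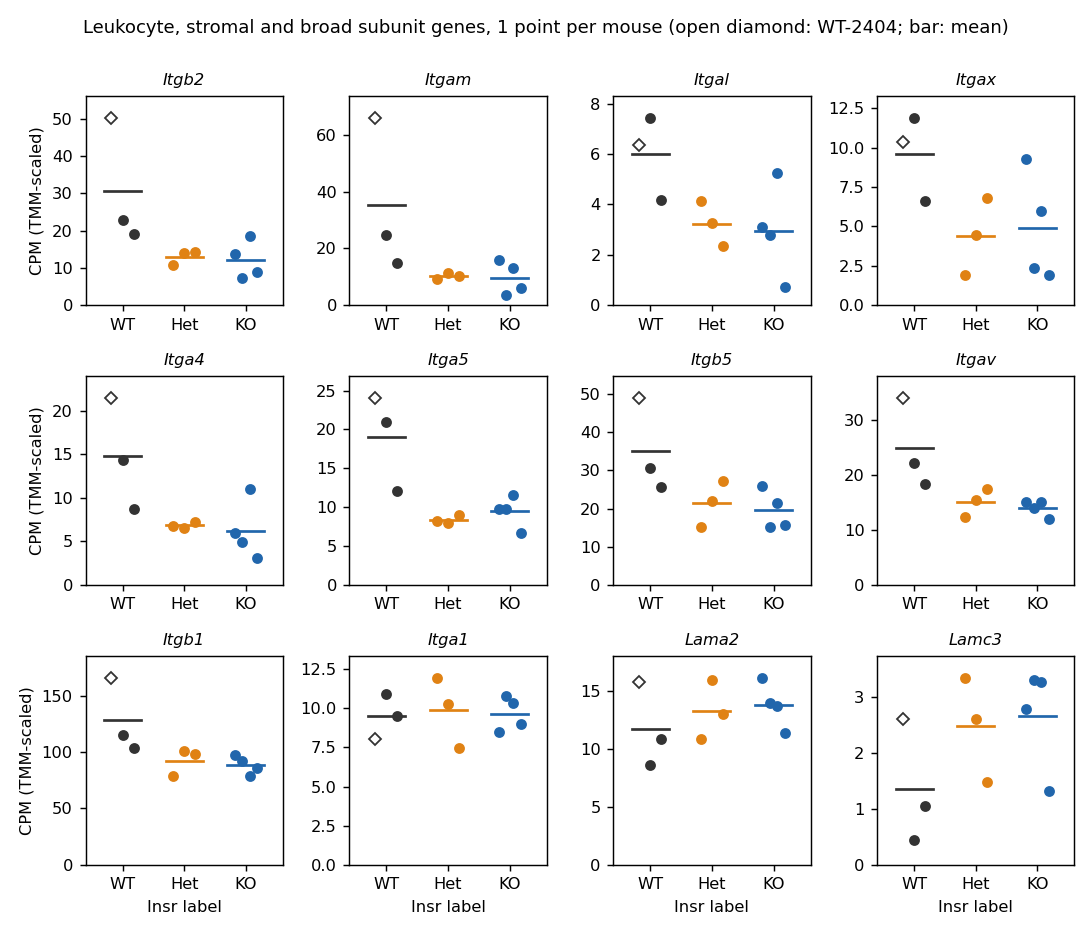
Each panel plots 1 leukocyte, stromal or broad subunit gene in TMM-scaled CPM (vertical axis, from 0) by Insr label, with 1 point per mouse, a bar at the mean and an open diamond for WT-2404. WT-2404 is the highest library for Itgb2, Itgam, Itga4, Itga5, Itgb5, Itgav and Itgb1 but not for Itgal, Itgax, Itga1, Lama2 or Lamc3.

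Ratios to cell type markers set the members beside the cells that carry them, and they do not depend on library scaling. The summed epithelial members per CPM of ductal markers were 0.341 to 0.385 in WT, 0.341 to 0.451 in Het and 0.356 to 0.522 in KO libraries, so the groups overlapped. Lama3 and Lamb3 together were at 0.0634 to 0.0743 per ductal marker CPM in WT, 0.0522 to 0.0669 in Het and 0.0508 to 0.0640 in KO libraries. These ranges overlapped too, through the highest KO and the lowest WT library. Itga6 and Itgb4 together were at 0.143 to 0.183 in WT, 0.168 to 0.259 in Het and 0.183 to 0.322 in KO libraries, where the KO range began at the top of the WT range. Of the ductal markers, Krt8 and Krt18 are also made by acinar cells.

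Leukocyte members per CPM of Ptprc, Cd53 and Laptm5 were at 0.744 to 0.814 in WT, 0.887 to 1.03 in Het and 0.892 to 1.07 in KO libraries. Per CPM of these 3 markers summed the floxed libraries were therefore higher, the reverse of the order in CPM. This order is that of the sum, and the markers did not move together. In WT-2404 and WT-1860 Laptm5 was at 123 and 64.6 CPM and Ptprc at 40.1 and 38.0 CPM. The leukocyte members summed to 165 and 90.8 CPM there. In KO-2070 Laptm5 was at 7.51 and Ptprc at 9.74 CPM. Ratios to each marker alone are not given. Itgam and Itgb2 per CPM of myeloid markers overlapped, at 0.0976 to 0.110 in WT, 0.0983 to 0.118 in Het and 0.0904 to 0.140 in KO libraries. Stromal members per CPM of fibroblast markers were at 0.0396 to 0.0867 in WT, 0.112 to 0.191 in Het and 0.105 to 0.220 in KO libraries, and per CPM of endothelial markers at 0.976 to 1.74, 0.718 to 0.877 and 0.557 to 0.913. The order of the groups thus depended on the denominator, and within the fibroblast list the genes differed. Col1a1, Col1a2 and Col3a1 were at 1092, 950 and 1922 CPM of the 4324 CPM of that list in WT-2404. Dcn of the same list overlapped, at 159 to 215 CPM in WT and 158 to 237 CPM in KO libraries. Ratios to Dcn alone are not given.

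**Figure D4:**
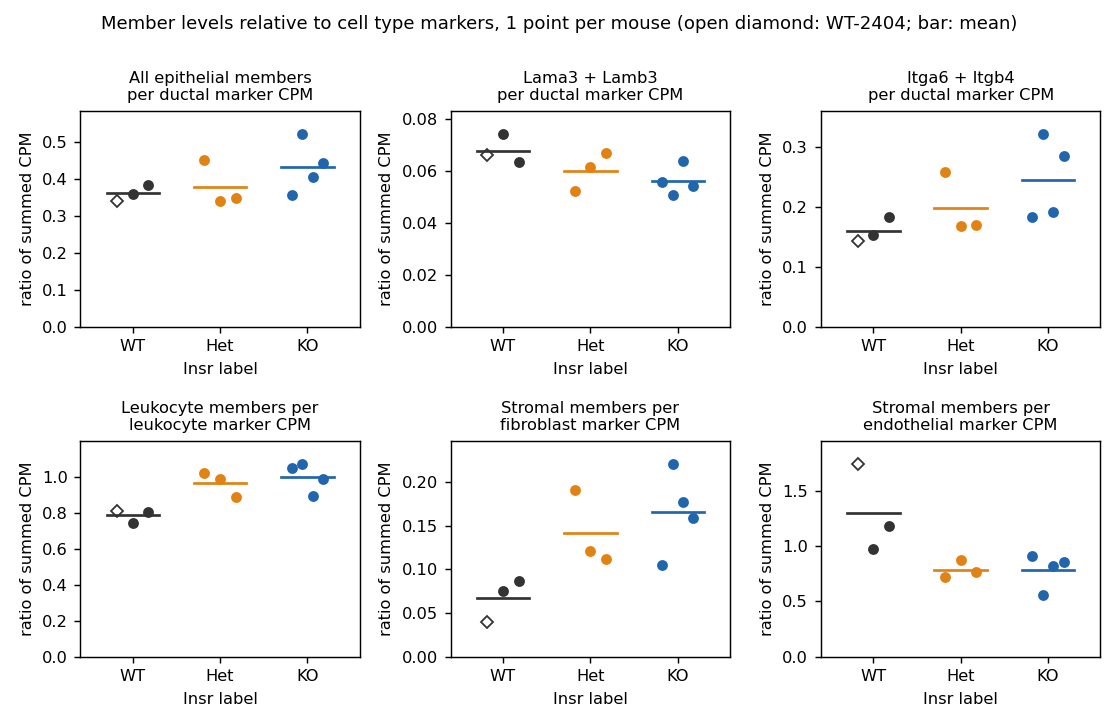
Ratios of summed member CPM to summed marker CPM (vertical axes, from 0, no unit) by Insr label, with 1 point per mouse, a bar at the mean and an open diamond for WT-2404. The sum of all epithelial members per ductal marker overlaps, at 0.341 to 0.385 in WT and 0.356 to 0.522 in KO. Leukocyte members per summed Ptprc, Cd53 and Laptm5 are higher in all KO than in all WT libraries. Laptm5 is the largest of these markers in the WT libraries.

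Het against WT bears on floxing 1 allele and uses the same WT libraries. No member of 37 passed in edgeR (0 called, 0% of all genes, lowest adjusted p = 0.183), and DESeq2 called Lama1, Itga5 and Itgam, 3 of 39 and all lower, where it called 1.34% of all genes lower and 0.816% higher. At an unadjusted p under 0.05, 11 members were lower and 1 was higher, beside 11.6% and 8.26% of all genes, and the median of the tested members was -0.63, with 31 of 37 under 0 beside 49.7% of all genes, and that median was -0.36 without WT-2404. Ranges did not overlap for 17 members that were lower and 1 that was higher, beside 13.5% and 11.3% of all genes. Without WT-2404 the lower count at an unadjusted p under 0.05 was 4, beside 3.61% of all genes, and 3 of those were epithelial, while 2 members were higher, beside 4.26%. Without WT-2067, 6 members passed the adjusted threshold, 5 of them lower and 1 higher, beside 4.01% and 4.16% of all genes. By library size alone 24 passed, all lower, beside 22.8% of all genes, and 30 were lower at an unadjusted p under 0.05, beside 51%.

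KO against Het bears on the other allele. In edgeR 0 of 37 members passed the adjusted threshold (0% of all genes) and 0 had an unadjusted p under 0.05, beside 0.351% of all genes lower and 0.402% higher, and DESeq2 called 0 members. The median over the tested members was -0.02, with 19 of 37 under 0 beside 48.6% of all genes, and ranges overlapped for every tested member, while they did not for 1.16% of all genes that were lower and 1.3% that were higher. The epithelial class had a median of -0.13 with 6 of 10 lower. The lowest members were Itgb6 at -0.60 (SE 0.48), Itga2 at -0.47 (SE 0.72) and Lamb3 at -0.44 (SE 0.30), each with an edgeR adjusted p of 1.0. These errors leave room for differences in either direction.

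Genes that act with integrins were taken from 3 lists. Of 25 adhesion machinery genes, which link integrins to actin and signalling, 21 were lower in KO than in WT libraries, 12 at an unadjusted p under 0.05, with a median of -0.49 on the log2 scale. Over all tested genes 48.2% were lower and 13.9% were lower at that p, which holds as the background for the other lists too. Without WT-2404 the median was -0.29. The lowest were Fermt3, the kindlin of blood cells, at -1.65, Parvg, a leukocyte parvin, at -1.22, and Fermt1, the kindlin of epithelia, at -1.11. Fermt2, the kindlin of mesenchyme, was at 0.18, Ilk at -0.06 and Ptk2, the focal adhesion kinase, at 0.24, and Lims2 was the highest at 0.27. Of 16 tested basement membrane and hemidesmosome partners 14 were lower, 5 at an unadjusted p under 0.05, with a median of -0.37, and -0.23 without WT-2404. Col18a1 and Col15a1, collagens of basement membranes, were at -1.19 and -1.14, and the hemidesmosome genes Plec and Dst at -0.49 and -0.14. Among 15 integrin ligands other than laminins 14 were lower, 7 at an unadjusted p under 0.05, with a median of -0.92, and -0.53 without WT-2404. Tnc and Fn1, ligands of injured and fibrotic tissue, were at -2.52 and -2.16, and Vtn, vitronectin, was at 1.18. In WT-2404, WT-1860 and WT-2067 Tnc was at 77.3, 64.5 and 29.5 CPM and Fn1 at 1008, 440 and 240 CPM. Vtn was at 13.0, 44.4 and 130 CPM in these libraries, and its KO range of 64.0 to 227 CPM overlapped theirs. No gene of the 3 lists passed the adjusted threshold in edgeR (0 genes). In Het against WT the 3 medians were -0.37, -0.43 and -1.26, and -0.23, -0.21 and -0.91 without WT-2404, and in KO against Het they were -0.07, 0.01 and 0.07.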

How the data were processed

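RNA of 10 pancreas tail pieces, 1 per mouse, was extracted from frozen tissue and sequenced, per the labels' protocols. The authors deposited 1 table of raw counts, whole numbers by gene symbol whose sums differ between libraries. The submitters' processing notes name DRAGEN, STAR, Cufflinks and the build mm10, and the counting tool, the annotation and the use of strand are not given in the sources used here. A label counts 1 more WT mouse, not analysed here, and 1 shared part of the genotype and 1 gene that the rule matched are not reported here. Labels name mice but no batch, litter or date.

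Columns were matched to samples by title, with 0 left over. The rows no_feature (2.59% to 8.71% of counts) and ambiguous (0.101% to 0.584%) stayed out of library sizes and tests. Libraries of a group differed far beyond sampling noise (chi-square per degree of freedom 28.7 to 1041), so each counted as 1 replicate.

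Of 24421 genes 13688 passed edgeR's filterByExpr (minimum count 10), including 37 members. Libraries were scaled with TMM and tested in 1 fit over all 10 libraries with edgeR 4.0.16 (glmQLFit and glmQLFTest, robust, two-sided), with Benjamini-Hochberg adjustment over all genes and a threshold of 0.05. Standard errors come from the quasi-F statistic. Fold changes were checked on simulated data. Single values were compared by exact permutation over mice. Exon lengths are unions of GENCODE M21 exons. DESeq2 1.42.0, other scalings, no filter, the 2 groups alone and leaving out each library were alternatives.

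The members, their classes and the lists of partners, ligands and markers were chosen with earlier results of these data known. Values by library were given for up to 4 members per class with the smallest p in KO against WT and for a fixed set (Lama3, Lamb3, Itga6, Itgb4, Itgb1, Itgb2, Itgb6), and for Itga1, Itga9, Lama2 and Lamc3, chosen after their values were seen. Other members are given by means or fold changes.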

Additional observations from a re-analysis of the deposited data

Results flagged for a closer look

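Dixon's gap test on the 4 KO libraries set KO-2124 apart in 2 of the 38 members checked, and chance gives about 1.9 such cases. Itga6 was at 26.1 CPM in KO-2124, while the 3 remaining KO libraries lay between 39.9 and 41.0 CPM. Itgb2l was at 0.0461 CPM in KO-2124, from a single count, and at 0 in the others, which lies within the limit that a count of 0 allows.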

How the results depend on the processing

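No paired analysis was possible because replicate numbers are mouse numbers that no groups share. Fold changes of the 22 members examined in every library kept their sign and their side of the threshold in 308 of 352 alternative fits for KO against WT and in 322 of 352 for Het against WT. They newly passed in 42 and 29, all of them by library size alone, by DESeq2 or without WT-2067. No other alternative called any gene in these comparisons, so there the side of the threshold could not change. A kept sign is not a kept size. Without WT-2404 Itgam went from -1.85 to -0.98 and Itgb2 from -1.34 to -0.77 in KO against WT. The sign turned in 3, for Itgb1bp1 by library size alone (-0.52 in KO and -0.61 in Het against WT) and for Itgb3bp without KO-2070 (0.0063).

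Members called in KO against WT were 12 by DESeq2 and 20 by library size alone, and 0 to 13 when leaving out single libraries, with 13 without WT-2067. All genes called were 1011, 2835 and 0 to 1933. In Het against WT members called were 3, 24 and 0 to 6, and all genes 391, 3125 and 0 to 1158. Members lower at an unadjusted p under 0.05, a count chosen after seeing the data, were 26 and 30 by library size alone in KO and Het against WT, beside 45.9% and 51% of all genes. When leaving out single libraries they were 10 to 18 and 4 to 17. The lowest counts came without WT-2404, beside 5.29% and 3.61% of all genes. The highest came without WT-2067, beside 2385 and 2178 of 14172 genes. In Het against WT these members were 22 with library size outside the digestive enzymes, beside 3255 of 13578 genes. They were 18 with only the groups compared, beside 1696 of 13279 genes.

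By library size alone, beside shifts of all genes of -1.17 and -1.36, class medians in KO and Het against WT were -2.32 and -2.19 (epithelial), -1.17 and -1.69 (stromal), -1.92 and -2.07 (broad) and -2.13 and -2.61 (leukocyte). With library size outside the digestive enzymes, beside shifts of -0.25 and -0.36, the broad medians were -0.87 and -0.92, and in Het against WT the stromal one was -0.59 and the leukocyte one -1.52. Leaving out single libraries moved the KO against WT medians between -1.24 and -0.96 (epithelial), -0.40 and 0.06 (stromal), -0.71 and -0.28 (broad) and -1.41 and -0.75 (leukocyte). Low counts limit Lama1, Itga2, Itgb6, Itgb8, Itga8, Itga10 and Itga2b, among others.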
